A study of Homo sapiens with 16 samples.

Results

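The apelin receptor APLNR and its peptide ligands APELA and APLN were followed through the differentiation of H1 human embryonic stem cells to definitive endoderm. The members were taken by gene symbol from the annotation of the array, and all 3 of 3 were measured, among 18132 genes in all. APLNR is a G protein-coupled receptor of the cell surface. APELA (also called ELABELA or Toddler) and APLN (apelin) are made as longer precursors, secreted, and bind this receptor. In zebrafish, Toddler and the receptor act in the cell movements of gastrulation that bring mesoderm and endoderm to their places, and in heart formation, whereas apelin is best known from blood vessels. APELA has also been described as a growth factor that human embryonic stem cells make for themselves.

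RNA was measured on 16 PrimeView arrays in 8 groups of 2. GATA6-depleted H1 cells carried a lentiviral hairpin against GATA6 and were sampled at days 3, 4 and 5. Rescue cells carried the same hairpin together with a hairpin-resistant GATA6 cDNA, which doxycycline induces, and were sampled at day 5 after 60 ng/mL doxycycline for 96 hours. Control H1 cells carried the empty vector and were sampled at days 0, 3, 4 and 5. No depleted or rescue sample of day 0 was analysed here. The lines were polyclonal, the depleted and control cells received no doxycycline, and the 2 samples of a group are described by the study as independent differentiations. Levels are RMA values on the log2 scale, on which 1 unit is a doubling of the signal. They can be compared between arrays for 1 gene but not between genes. The lower quartile of all probe sets, used here as a mark of dim signal because no detection calls were used, lay between 2.94 and 3.06 log2 on the 16 arrays. Differences were tested with limma over all genes, and a gene was called where its p, adjusted by Benjamini-Hochberg, was under 0.05.

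GATA6, the targeted gene, averaged 9.83 ± 0.10, 7.27 ± 0.92 and 6.49 ± 0.18 log2 in depleted cells at days 3, 4 and 5, against 11.52 ± 0.12, 11.48 ± 0.06 and 11.53 ± 0.05 log2 in control cells (SD, n = 2 each). Rescue cells at day 5 averaged 8.37 ± 0.08 log2 and control cells at day 0 averaged 1.79 ± 0.10 log2 (SD, n = 2 each). GATA6 signal in rescue cells thus stayed below that in day 5 control cells, with a difference of -3.15 ± 0.29 log2 (SE, adjusted p = 1.08e-05). The study, in contrast, reports GATA6 overexpression in rescue endoderm given doxycycline, and states a lower dose than the 60 ng/mL labelled for these arrays. It describes the hairpin as aimed at an untranslated part of GATA6, to which the cDNA is not sensitive. It is not known if the probe set also reads the induced cDNA, so the array difference may not show the total GATA6 RNA. Of 15 measured markers of definitive endoderm, 13 were higher and 1 lower in control day 5 than in control day 0, where 34% of all genes were called, so the label of these cells was borne out by its markers. At day 5, where 32.6% of all genes were called, 1 of the 15 was higher and 12 were lower in depleted than in control cells, with CXCR4, FRZB and HHEX lowest (-6.11 ± 0.42, -5.76 ± 0.39 and -5.43 ± 0.36 log2, SE). The 2 rescue arrays differed from each other by an SD of 0.148 log2 over genes, against 0.231 to 0.346 for the other groups. Their independence is uncertain. The bacterial spike bioB averaged 7.26 and 7.29 log2 on them and 7.74 and 7.66 log2 at day 0, against 8.39 to 8.96 on the other 12 arrays. The part of this difference in any result below was not tested.

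APELA is annotated by RefSeq (GRCh38.p14) with a start on the plus strand of chromosome 4, and APLN with a start on the minus strand of chromosome X. Their promoters are shown because GATA6, a factor that binds the letters GATA, was the gene depleted. Each window holds 300 bases, most of them before the start, APELA at chr4:164876928-164877227 and APLN at chrX:129654907-129655206. Capitals mark GATA read on either strand, which appears as TATC where it lies on the other strand.
APELA promoter: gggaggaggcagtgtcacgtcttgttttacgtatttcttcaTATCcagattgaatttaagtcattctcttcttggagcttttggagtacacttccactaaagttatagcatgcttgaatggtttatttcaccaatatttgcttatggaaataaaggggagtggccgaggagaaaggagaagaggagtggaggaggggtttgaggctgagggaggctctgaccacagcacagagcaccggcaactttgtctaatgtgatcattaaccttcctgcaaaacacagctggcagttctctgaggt
APLN promoter: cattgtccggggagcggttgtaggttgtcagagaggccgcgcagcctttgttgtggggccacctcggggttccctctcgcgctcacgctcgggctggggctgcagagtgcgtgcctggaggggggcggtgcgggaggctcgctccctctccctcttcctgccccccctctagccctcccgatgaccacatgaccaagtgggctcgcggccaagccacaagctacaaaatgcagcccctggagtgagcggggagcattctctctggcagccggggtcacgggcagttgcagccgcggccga
The APELA window held 1 GATA, at position -209 from the start, and the APLN window 0. Neither held the longer form, GATA with A or T before it and A or G after it, on either strand. Of 35116 promoter windows of the same length, 49.7% held GATA and 25% the longer form, which contains GATA. A match of so few letters is a description of the sequence and not a site. APLNR had no window in this table.

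APLNR was low in pluripotent cells, highest at day 3 and lower again by day 5. In control cells the receptor measured 4.07 and 3.14 log2 at day 0, 9.83 and 9.67 log2 at day 3, 8.45 and 7.08 log2 at day 4, and 6.83 and 5.24 log2 at day 5. Every day 3 array lay above every array of the other control days, and the days 4 and 5 each had 1 array well above the other. APLNR was higher in control cells at day 3 than at day 0 by 6.14 ± 0.54 log2 (SE, adjusted p = 2.81e-06), lower at day 5 than at day 3 (-3.71 ± 0.54 log2, adjusted p = 9.23e-04), and still higher at day 5 than at day 0 by 2.43 ± 0.54 log2 (adjusted p = 0.00331).

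APELA ran the other way. In control cells it measured 9.13 and 9.87 log2 at day 0, 6.03 and 4.51 log2 at day 3, 5.29 and 6.57 log2 at day 4, and 7.08 and 8.08 log2 at day 5. The ligand was thus high in pluripotent cells, where the receptor was low, and low at day 3, where the receptor was high. APELA was lower at day 3 than at day 0 (-4.23 ± 0.52 log2, SE, adjusted p = 4.99e-05) and higher at day 5 than at day 3 by 2.31 ± 0.52 log2 (adjusted p = 0.0120). At day 5 it remained below day 0 (-1.92 ± 0.52 log2, adjusted p = 0.0112). Both later calls rest on single arrays. The difference of day 5 from day 3 was 1.55 log2 (adjusted p = 0.0882) without replicate 2 of day 3 and 1.81 log2 (adjusted p = 0.112) without replicate 2 of day 5. That of day 5 from day 0 was -1.55 log2 (adjusted p = 0.0917) without replicate 2 of day 0 and -1.42 log2 (adjusted p = 0.112) without replicate 1 of day 5.

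APLN was low throughout, between 2.84 and 3.97 log2, and lay above its array's lower quartile on 14 of 16 arrays. In control cells it measured 3.97 and 3.45 log2 at day 0, 3.22 and 3.16 log2 at day 3, 3.37 and 3.07 log2 at day 4, and 3.32 and 3.34 log2 at day 5. It ranked between the 17.5th and 32.4th percentile of genes on the 16 arrays, and day 0 was the highest group. APLN was called lower at day 3 than at day 0 (-0.52 ± 0.17 log2, SE, adjusted p = 0.0313), but the difference was -0.27 log2 (adjusted p = 0.285) without replicate 1 of day 0, the brightest array. The call was also lost without either array of day 3. No fold is given for a signal this close to the dim mark.

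Between control days 3 and 0, 1 member was called higher and 2 lower, where 27.8% of all genes were called (13.2% higher and 14.6% lower). Between control days 5 and 3, 1 was higher and 1 lower, where 11.6% of genes were called (6.11% higher and 5.45% lower), and between control days 5 and 0, 1 was higher and 1 lower, where 34% were called (15.9% higher and 18.1% lower).

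**Figure D1:**
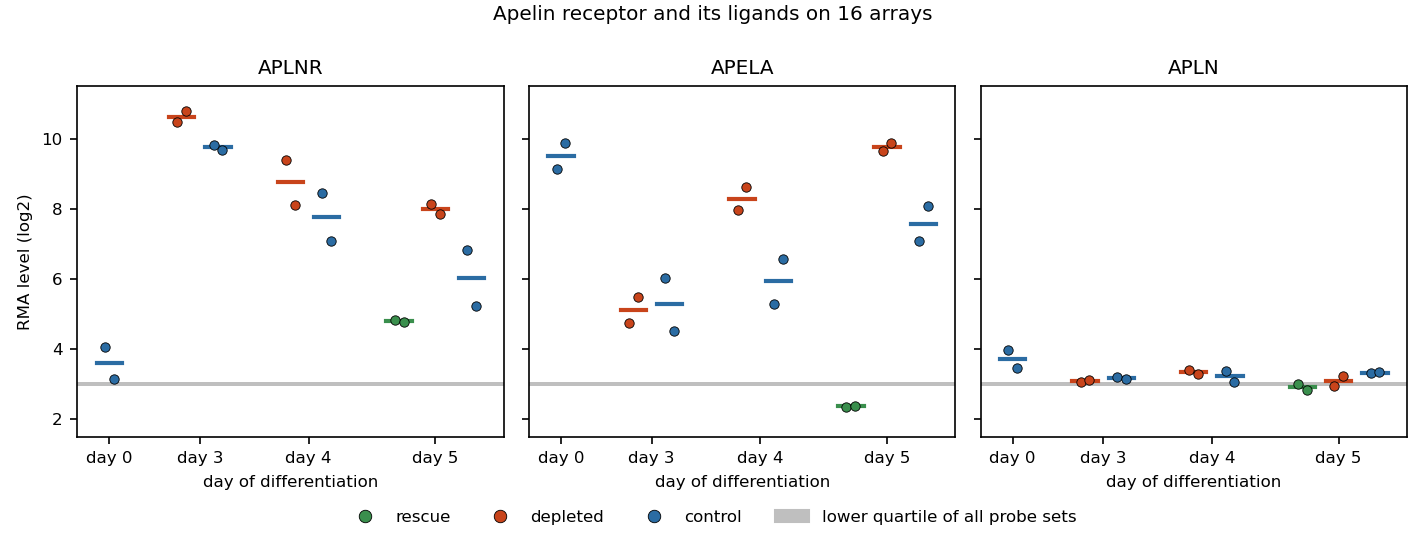
RMA level (log2, vertical axis) of APLNR, APELA and APLN by day of differentiation (horizontal axis) in rescue, depleted and control cells. Points are arrays, bars are means of 2, and the grey band is the lower quartile of all probe sets. APLNR peaked at day 3, APELA was lowest in rescue cells at 2.36 and 2.37 log2, and APLN stayed between 2.84 and 3.97 log2.

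GATA6 depletion left more of the receptor at day 5. APLNR measured 10.48 and 10.77 log2 in depleted cells at day 3, against 9.83 and 9.67 log2 in control cells. At day 4 it measured 9.40 and 8.12 log2 in depleted cells, against 8.45 and 7.08 log2 in control cells, and at day 5 it measured 8.14 and 7.85 log2 in depleted cells, against 6.83 and 5.24 log2 in control cells. The groups did not overlap at days 3 and 5 and overlapped at day 4. With 2 arrays a group, a lack of overlap is a weak mark, and its share over all genes was not counted. APLNR was 1.96 ± 0.54 log2 higher in depleted cells at day 5, which is 3.90-fold (SE, adjusted p = 0.0133, 95% interval 0.79 to 3.13 log2). The differences of 0.88 ± 0.54 log2 at day 3 (adjusted p = 0.452, interval -0.29 to 2.05 log2) and 1.00 ± 0.54 log2 at day 4 (adjusted p = 0.207, interval -0.17 to 2.17 log2) did not pass the test. The day 5 call was lost without replicate 2 of the day 5 controls (1.17 log2, adjusted p = 0.157) and without replicate 1 of the depleted cells (1.82 log2, adjusted p = 0.0791).

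APLNR was lower at day 5 than at day 3 in depleted cells too. Depleted cells at day 5 differed from depleted cells at day 3 by -2.63 ± 0.54 log2 (SE, adjusted p = 0.00311), and were 4.39 ± 0.54 log2 above control cells at day 0 (adjusted p = 1.27e-04). The depletion effect on APLNR differed between days 5 and 3 by 1.08 ± 0.76 log2 (adjusted p = 0.377), between days 4 and 3 by 0.12 ± 0.76 log2 (adjusted p = 0.951) and between days 5 and 4 by 0.96 ± 0.76 log2 (adjusted p = 0.759). No difference between days in the effect on the receptor passed the test.

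The ligand APELA, unlike the receptor, was called at both later days. At day 3 it measured 4.73 and 5.48 log2 in depleted cells, against 6.03 and 4.51 log2 in control cells, and the groups overlapped. At day 4 it measured 7.96 and 8.61 log2 in depleted cells, against 5.29 and 6.57 log2 in control cells, and at day 5 it measured 9.64 and 9.88 log2 in depleted cells, against 7.08 and 8.08 log2 in control cells. Both later days separated the groups, with the same limit of 2 arrays a group. The day 5 depleted arrays lay near the level of pluripotent control cells. APELA was higher in depleted cells by 2.35 ± 0.52 log2 at day 4 (SE, adjusted p = 0.00393) and by 2.18 ± 0.52 log2, or 4.54-fold, at day 5 (adjusted p = 0.00563). At day 3 the difference was -0.16 ± 0.52 log2 (adjusted p = 0.927, interval -1.29 to 0.96 log2). The day 4 call was lost without replicate 1 of the day 4 controls (1.71 log2, adjusted p = 0.0558), and the day 5 call without replicate 1 of the day 5 controls (1.68 log2, adjusted p = 0.0653).

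The depletion effect on APELA exceeded that of day 3 by 2.52 ± 0.73 log2 at day 4 (SE, adjusted p = 0.0350) and by 2.35 ± 0.73 log2 at day 5 (adjusted p = 0.0427). It differed by -0.17 ± 0.73 log2 between days 5 and 4 (adjusted p = 0.971). Both calls were lost in a fit of the compared groups alone (adjusted p = 0.0767 and 0.0542). Within depleted cells APELA was 4.65 ± 0.52 log2 higher at the last day than at day 3 (adjusted p = 3.37e-05). There it differed from control day 0 by 0.26 ± 0.52 log2 (adjusted p = 0.804, interval -0.86 to 1.38 log2).

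APLN stayed low under depletion, at 3.07 and 3.12 log2 in depleted cells at day 3, 3.39 and 3.29 log2 at day 4 and 2.94 and 3.24 log2 at day 5. The differences from control cells were -0.09 ± 0.17, 0.12 ± 0.17 and -0.24 ± 0.17 log2 at days 3, 4 and 5 (SE, adjusted p = 0.850, 0.671 and 0.308). Depleted cells at day 5 differed from control cells at day 0 by -0.62 ± 0.17 log2 (adjusted p = 0.0195). That call was lost without replicate 1 of day 0 (-0.36 log2) and without replicate 1 of depleted day 5 (-0.47 log2). The apelin ligand therefore showed no called difference between depleted and control cells on any day.

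At day 3, 0 of 3 members were called between depleted and control cells, where 3.75% of all genes were called (1.79% higher and 1.96% lower). At day 4, 1 was higher, where 28.2% were called (14.8% higher and 13.3% lower), and at day 5, 2 were higher, where 32.6% were called (16.5% higher and 16% lower). Among the tests of the effect between days, 1 member was called for day 4 against day 3, where 15.3% of genes were called (8.35% higher and 6.95% lower). For day 5 against day 3, 1 was called, where 17.9% were (8.63% higher and 9.26% lower), and for day 5 against day 4, 0 were called, where 0.0938% were (0.0221% higher and 0.0717% lower). For depleted day 5 against depleted day 3, 1 member was higher and 1 lower, where 23.1% of genes were called (11.7% higher and 11.4% lower), and for depleted day 5 against control day 0, 1 was higher and 1 lower, where 18.5% were called (8.8% higher and 9.71% lower). A set of 3 members is too small for its share to be read against these. RNA was taken from whole cultures, so fewer cells of a type and less RNA per cell cannot be told apart.

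**Figure D2:**
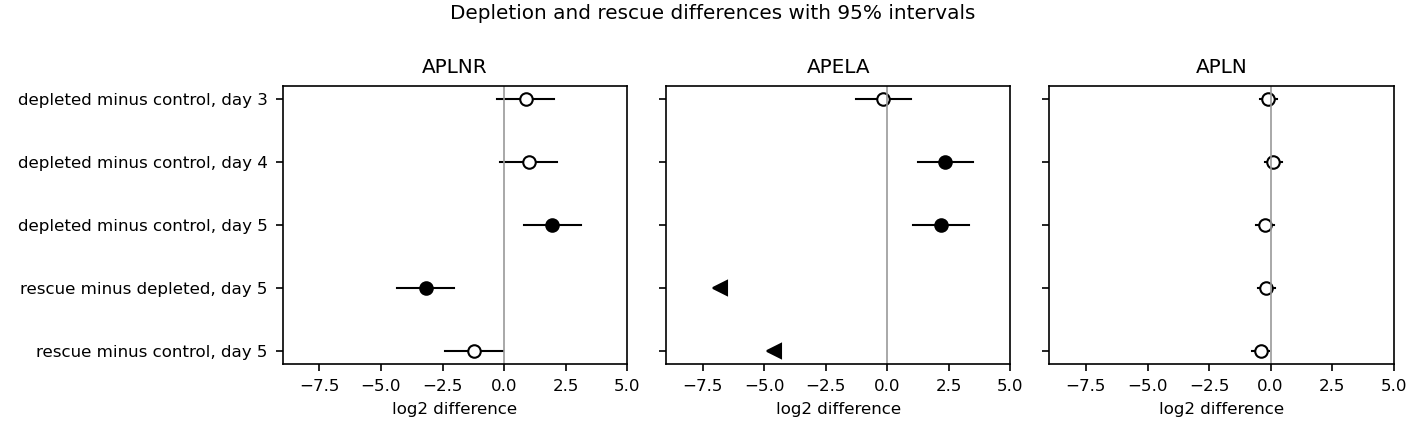
Differences of APLNR, APELA and APLN (log2, horizontal axis) for depleted minus control at days 3, 4 and 5, rescue minus depleted and rescue minus control at day 5. Circles are fitted differences, lines are 95% intervals, and filled symbols were called. Triangles are bounds, used where a group lay below the lower quartile of its arrays. APELA was at least 6.79 log2 lower in rescue than in depleted cells, and every APLN point was open.

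Rescue cells had the least APELA of all groups. It measured 2.36 and 2.37 log2 in rescue cells, against 9.64 and 9.88 log2 in depleted cells and 7.08 and 8.08 log2 in control cells at day 5. Both rescue arrays lay below the dim mark, and both other groups lay far above it. Set against the lower quartile of the rescue arrays, which averaged 2.97 log2, APELA was at least 6.79 log2, or 111-fold, lower in rescue than in depleted cells (adjusted p = 2.64e-07). It was at least 4.61 log2, or 24.4-fold, lower in rescue than in control cells (adjusted p = 2.09e-05). With the rescue arrays counted as 1 sample, both stayed called (adjusted p = 1.05e-05 and 5.24e-04). The p-values are those of the measured signals.

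APLNR in rescue cells measured 4.83 and 4.78 log2, against 8.14 and 7.85 log2 in depleted cells and 6.83 and 5.24 log2 in control cells. It was lower than in depleted cells (-3.19 ± 0.54 log2, SE, adjusted p = 3.87e-04, and 0.00427 with the rescue arrays as 1 sample). Against control cells the difference was -1.23 ± 0.54 log2 (adjusted p = 0.128, interval -2.39 to -0.06 log2) and did not pass the test. With a block for replicate number in the limma fit, the same difference was called (adjusted p = 0.0411). Whether these numbers pair the samples was not tested. Without replicate 2 of the day 5 controls, the dimmer one, the difference was -2.02 log2. With each array left out in turn it ranged from -2.02 to -0.43 log2, so its size depended on the arrays kept. So rescue cells sat at a lower receptor level than depleted cells, and the 2 control arrays differed from each other by 1.59 log2. The study reports that APLNR, elevated by depletion, came close to its control level in rescue cells.

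APLN measured 3.00 and 2.84 log2 in rescue cells. It differed by -0.17 ± 0.17 log2 from depleted cells (SE, adjusted p = 0.457) and by -0.41 ± 0.17 log2 from control cells (adjusted p = 0.0974). Between rescue and depleted cells 2 members were called lower, where 39.5% of genes were called (21.9% higher and 17.6% lower). Between rescue and control cells 1 was called lower, where 23.3% were called (13.8% higher and 9.57% lower). These comparisons share the rescue arrays, and those with depleted and with control cells share arrays with the tests of depletion.

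Ordered by level, APLNR was highest in depleted day 3 cells at 10.63 ± 0.21 log2, then control day 3, depleted day 4, depleted day 5, control day 4, control day 5, rescue day 5 and, lowest, control day 0 at 3.61 ± 0.65 log2 (SD, n = 2 each). No 2 neighbours in that order were called different, although 19 of all 28 pairs of groups were. APELA was highest in depleted day 5 cells at 9.76 ± 0.18 log2, then control day 0, depleted day 4, control day 5, control day 4, control day 3, depleted day 3 and rescue day 5 at 2.36 ± 0.00 log2 (SD, n = 2 each). Its only neighbours called different were depleted day 3 and rescue day 5, by at least 2.14 log2 (adjusted p = 0.00111), and 20 of 28 pairs were called. APLN was highest in control day 0 cells at 3.71 ± 0.36 log2 and lowest in rescue cells at 2.92 ± 0.11 log2 (SD, n = 2 each), with no neighbours called and 5 of 28 pairs called.

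A second probe set of APLNR gave the same calls. It measured 7.54 and 7.09 log2 in depleted cells at day 5, against 6.08 and 4.11 log2 in control cells, a difference of 2.22 ± 0.60 log2 (SE, adjusted p = 0.0138). In rescue cells it measured 3.62 and 3.64 log2, -3.68 ± 0.60 log2 from depleted cells (adjusted p = 3.24e-04) and -1.46 ± 0.60 log2 from control cells (adjusted p = 0.116). APELA and APLN had 1 probe set each, so no such check could be made for the ligands.

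In most groups, receptor and ligand also differed between the replicates in opposite directions. In 6 of 8 groups the array with more APLNR had less APELA, and the 2 day 3 groups were the exceptions. The 6 include the rescue pair, which differed by only 0.05 log2 in APLNR and -0.0069 log2 in APELA. Both APELA values of that pair lay below the dim mark. How often other pairs of genes do the same was not counted. In control day 5 cells replicate 1 exceeded replicate 2 by 1.59 log2 in APLNR and differed from it by -0.998 log2 in APELA. In control day 4 cells the same 2 differences were 1.37 and -1.28 log2. Over the 16 arrays Pearson's r between APLNR and APELA was -0.15, and it was -0.67 over 14 arrays without the rescue pair, a choice made after the values were seen. The arrays share their groups, so these are descriptions.

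**Figure D3:**
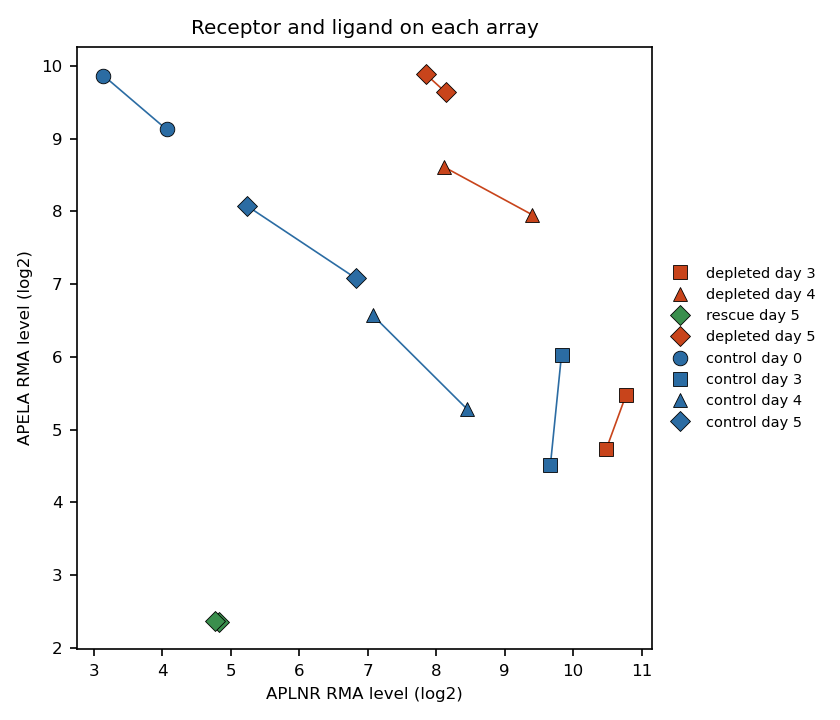
APELA level (log2, vertical axis) against APLNR level (log2, horizontal axis), 1 point an array, coloured by line and shaped by day, with a line joining the 2 arrays of a group. Day 0 arrays lie at high APELA and low APLNR, day 3 arrays at low APELA and high APLNR, and the rescue arrays at low levels of both.

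Among 5585 genes whose group means spanned at least 1 log2, those most like APLNR by Pearson's r over the 16 arrays were PIK3R1 (0.96), a regulatory subunit of phosphoinositide 3-kinase, MESP1 (0.96), a transcription factor of the earliest mesoderm, MAMLD1 (0.96), TENM4 (0.95), a transmembrane teneurin, and KAZN (0.95). MESP1 averaged 8.76 log2 in its highest group and 4.28 log2 in its lowest. These genes were chosen for following APLNR on these arrays, so their differences are descriptions and no test is given. Between depleted and control cells at day 5 they were 0.85 ± 0.17 log2 for PIK3R1, 1.20 ± 0.21 log2 for KAZN, 1.03 ± 0.39 log2 for MESP1, 1.28 ± 0.58 log2 for MAMLD1 and 0.79 ± 0.31 log2 for TENM4 (SE).

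Most like APELA were MAML2 (0.95), a coactivator of Notch signalling, RASGRF2 (0.95), an exchange factor of Ras proteins, JARID2 (0.95), a partner of Polycomb repressive complex 2, NANOGP1 (0.94) and VSNL1 (0.94), a neuronal calcium sensor. NANOGP1 is a near copy of NANOG, so its signal is uncertain. They too were chosen for following APELA on these arrays, in which rescue cells are lowest, so no test is given. Between depleted and control cells at day 5 JARID2 differed by 0.96 ± 0.14 log2 and VSNL1 by 0.89 ± 0.28 log2 (SE). The group means of the others lay closer together. MAML2 averaged 7.43 log2 in depleted and 6.92 log2 in control cells, RASGRF2 5.49 and 5.16 log2, and NANOGP1 5.37 and 4.59 log2. Between rescue and control cells VSNL1 differed by -3.62 ± 0.28 log2, JARID2 by -0.998 ± 0.14 log2, RASGRF2 by -1.75 ± 0.16 log2 and MAML2 by -1.39 ± 0.16 log2. NANOGP1 lay below the lower quartile in rescue cells and was at least 1.63 log2 lower there than in control cells. Most like APLN were IDO1 (0.89), HMX2 (0.87), C18orf54 (0.85), B4GALT6 (0.85) and SNCAIP (0.84), and the small spread of APLN limits this likeness. Ranked over the 8 group means instead, 4 of the 5 genes of APLNR stayed among the top 5, and 2 of APELA and 1 of APLN.

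**Figure D4:**
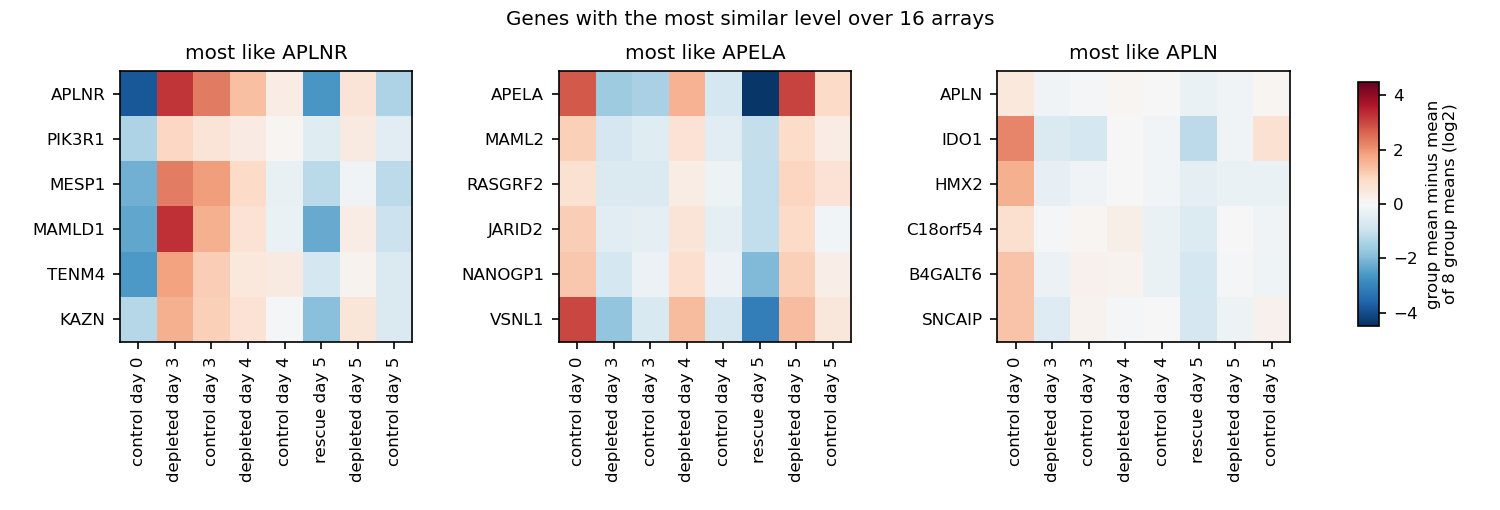
Group means of each member and its 5 most similar genes, each shown as its distance from the mean of its 8 group means (log2, colour) for the 8 groups (horizontal axis). The APLNR panel is highest at day 3, the APELA panel is high at day 0 and lowest in rescue cells, and the APLN panel is highest at day 0.

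The peptides are cut from their precursors by proprotein convertases and broken down by peptidases, and 7 of 10 genes listed for these steps were measured. For this list and those below, counts are to be read beside the share of all genes called. That share was 3.75%, 28.2% and 32.6% for depletion at days 3, 4 and 5, and 23.3% for rescue against control. It was 27.8% for control day 3 against day 0 and 11.6% for control day 5 against day 3. No list was tested as a set. At day 5, 2 of the 7 were higher and 2 lower in depleted than in control cells, with a median of 0.11 log2 against 0.04 log2 over all genes. PCSK5, a convertase, measured 8.75 and 8.66 log2 in depleted cells, against 5.56 and 4.89 log2 in control cells, and rose by 3.48 ± 0.18 log2 (SE, adjusted p = 6.83e-08). PCSK5, like APELA, was lower in control cells at day 3 than at day 0 (-2.52 ± 0.18 log2, adjusted p = 6.05e-07). PCSK6 rose by 0.44 ± 0.15 log2, and PCSK7 and MME, the peptidase neprilysin, fell, with differences of -0.58 ± 0.15 and -0.96 ± 0.25 log2 (adjusted p = 0.0417, 0.00785 and 0.0106). At day 4, KLKB1, plasma kallikrein, was 1.29 ± 0.35 log2 higher in depleted cells (adjusted p = 0.0141), beside PCSK5 at 2.68 ± 0.18 log2 (adjusted p = 5.44e-07), with 2 higher and 2 lower in all. Against rescue, PCSK5 was 1.08 ± 0.18 log2 higher in rescue than in control cells (adjusted p = 0.00113), the only one of the 7 called, while FURIN, which can cut many precursors, was not called in either comparison of depletion at days 4 and 5.

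Of the genes that carry the receptor's signal, 17 of 19 were measured. At day 5, 1 rose and 6 fell in depleted against control cells, with a median of -0.21 log2 against 0.04 log2 over all genes. Over all genes 16.5% were called higher and 16% lower. GNAQ, a G protein alpha subunit, rose by 0.87 ± 0.16 log2 (SE, adjusted p = 0.00119). GNAI2 and GNA13, other alpha subunits, fell, with differences of -0.78 ± 0.19 and -0.81 ± 0.14 log2 (adjusted p = 0.00613 and 7.13e-04), as did ARRB1, an arrestin that shuts receptors off (-0.55 ± 0.19 log2, adjusted p = 0.0427). The kinases MAPK3 and AKT1 and the deacetylase HDAC5 also fell, with differences of -0.49 ± 0.14, -0.70 ± 0.18 and -0.91 ± 0.18 log2 (adjusted p = 0.0191, 0.00868 and 0.00169). At day 4, 1 rose and 5 fell, all among these genes. At day 3, GNAQ and GRK5, a kinase that marks active receptors, rose by 0.81 ± 0.16 and 0.98 ± 0.19 log2 (adjusted p = 0.0156 and 0.0135), and 0 fell. In rescue against control cells 8 rose and 2 fell, where 13.8% of all genes were called higher and 9.57% lower. KLF2, a target of apelin signalling in endothelium, rose by 2.84 ± 0.34 log2 (adjusted p = 8.00e-05), GRK5 by 1.28 ± 0.19 log2 (adjusted p = 4.61e-04), and ARRB1 fell (-1.33 ± 0.19 log2, adjusted p = 3.26e-04). The others that rose were GNAI1, GNAI3, GNAQ, AKT1, HDAC4 and MEF2A, and GNA13 fell.

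All 9 receptors listed as relatives or partners were measured. In control cells at day 3, where 27.8% of all genes were called against day 0, 3 were higher than at day 0 and 0 lower. These were the chemokine receptors ACKR3 and CXCR4, by 6.33 ± 0.29 and 4.12 ± 0.42 log2 (SE, adjusted p = 1.17e-08 and 1.14e-05), and CMKLR1, by 1.31 ± 0.33 log2 (adjusted p = 0.00963). Unlike APLNR, CXCR4 and ACKR3 were higher at day 5 than at day 3 in control cells, by 2.36 ± 0.42 and 1.20 ± 0.29 log2 (adjusted p = 0.00344 and 0.0179). In depleted against control cells at day 5, 0 rose and 2 fell, CXCR4 and ACKR3, with differences of -6.11 ± 0.42 and -4.96 ± 0.29 log2 (adjusted p = 4.42e-07 and 1.47e-07), whereas APLNR was higher.

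Markers of early mesoderm, a tissue known to carry APLNR in embryos, were set beside the receptor. Of 16 measured, 8 were higher and 0 lower in control day 3 than day 0, led by PDGFRA at 4.68 ± 0.36, MESP1 at 4.07 ± 0.39 and BMP4 at 4.01 ± 0.32 log2 (SE). At day 5 against day 3, 0 were higher and 8 lower, led by MESP1 at -3.08 ± 0.39 and HAND1 at -2.58 ± 0.50 log2, and by FOXF1, which was below the lower quartile at day 5 and at least 2.63 log2 lower there. At day 5, where 32.6% of all genes were called, 2 were higher and 2 lower in depleted than in control cells, with TWIST1 at 5.39 ± 0.49, SNAI2 at 2.77 ± 0.39 and PDGFRA at -1.21 ± 0.36 log2. Its mean level was 5.36 to 5.40 log2 in depleted day 5 arrays, against 4.74 to 4.93 log2 in control day 5 arrays, and 2 of its 16 members lay at or below the dim mark in both. The median difference of the list between depleted and control cells at day 5 was 0.10 log2, against 0.04 log2 over all genes, and TWIST1 and SNAI2 had the largest differences. Of 14 endothelial and blood markers, 2 were higher and 3 lower in depleted cells at day 5, with VWF at -4.98 ± 0.29 and TEK at -1.09 ± 0.30 log2, and FLI1, below the lower quartile in control cells, at least 2.46 log2 higher. Whether the cells carrying APLNR had changed in number was not tested.

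Markers of pluripotency were set beside APELA in the same way. Of 15 measured, 1 was higher and 12 lower in control day 3 than day 0, with FOXD3, SOX2 and PRDM14 at -3.85 ± 0.34, -3.33 ± 0.23 and -2.64 ± 0.40 log2 (SE). At day 5, where 32.6% of all genes were called, 9 were higher and 2 lower in depleted than in control cells, with a median of 0.84 log2, led by SFRP2, KLF4 and POU5F1 at 2.12 ± 0.20, 2.05 ± 0.36 and 1.83 ± 0.17 log2. In rescue against control cells, where 23.3% of all genes were called, 0 were higher and 9 lower, with SFRP2, ZFP42 and POU5F1 at -3.61 ± 0.20, -3.15 ± 0.15 and -3.10 ± 0.17 log2. The list moved with APELA in depleted and in rescue cells at day 5. It did not do so between control days 5 and 3, where 3 were higher and 4 lower, with a median of 0.06 log2, and APELA was higher. Its mean level was 6.40 to 6.43 log2 in rescue arrays, 8.70 log2 in both depleted day 5 arrays and 7.76 to 8.06 log2 in control day 5 arrays, and 0 of 15 members lay at or below the dim mark in any of the 3 groups. Between depleted cells at day 5 and control day 0, 1 of the list was higher and 8 lower, where 18.5% of all genes were called. The median of the list was -0.54 log2, against 0.01 log2 over all genes. The APELA difference in that comparison was 0.26 ± 0.52 log2 and was not called. Its interval of -0.86 to 1.38 log2 includes this median but spans both directions, so whether APELA followed the list cannot be told. The part of remaining pluripotent cells in the APELA result was not tested.

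Of 12 measured genes of the Nodal and activin pathway, which the differentiation medium drives, 0 rose and 7 fell in depleted against control cells at day 5, with GDF3, LEFTY2 and LEFTY1 at -2.51 ± 0.18, -1.82 ± 0.40 and -1.68 ± 0.31 log2 (SE). Over all genes 32.6% were called in this comparison and 23.3% in rescue against control. Of 12 mesendoderm genes, 3 rose and 6 fell, with GSC at -4.37 ± 0.29 and TBXT at 3.43 ± 0.37 log2. The 6 include GATA6, the targeted gene, at -5.03 ± 0.29 log2. Of 11 genes of the response to low oxygen, a condition known to raise APLN in other cells, 4 rose and 3 fell in depleted cells, and in rescue against control cells 7 rose and 0 fell, led by ADM at 1.63 ± 0.27 log2, while APLN was called in neither. For other cell types, 3 of 12 trophoblast and amnion markers were higher and 1 lower in depleted than in control cells at day 5. They were led by TFAP2C at 2.80 ± 0.34 log2, while GATA3 averaged 6.01 log2 in depleted and 7.44 log2 in control cells. Of these 12, 5 lay at or below the dim mark in depleted and 6 in control cells at day 5. Of 11 neuroectoderm markers 3 were higher and 3 lower, led by SOX3 at 4.56 ± 0.31, PAX6 at -3.86 ± 0.23 and OTX2 at -3.82 ± 0.56 log2. Of 13 for smooth muscle and fibroblasts 7 were higher and 1 lower, led by ACTG2 at 5.40 ± 0.65 log2. LUM, below the lower quartile in depleted cells, was at least 3.52 log2 lower there. Of 9 housekeeping genes 2 were higher and 1 lower, with a median of 0.01 log2. The part of such cells in the receptor and ligand results was not tested.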

How the data were processed

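RNA of 16 samples was hybridised to PrimeView arrays. The deposited log2 values, 1 per probe set and array, are levels that the authors obtained by RMA (robust multi-array average) normalisation with Partek Genomics Suite, in a version not given in the sources used here. Of 49395 probe sets, 44994 named 1 gene by the platform annotation. Those naming several (1832) or none (2569) were left out. For each of 18132 genes the probe set brightest on average was used. Groups came from the labels. Group means were fitted over all arrays with limma 3.58.1 in R 4.3.3 (8 residual and 4.58 prior degrees of freedom), two-sided, with Benjamini-Hochberg adjustment over all genes and calls under 0.05. The script was tested on simulated data. The number of arrays limits the precision. Where both arrays of 1 group lay at or below their lower quartile, differences are bounds against that quartile.

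Members and gene lists were chosen with earlier results of these data known. Named genes were the members, GATA6, the 5 most correlated genes per member, every called gene of the lists for peptide processing, receptor transduction and related receptors in the comparisons described, and up to 3 of each other list. FURIN was named after its values were seen. Alternatives tried were averaging a gene's probe sets, the other APLNR probe set, a filter at the 25th percentile, cyclic loess, trended and robust moderation, compared groups alone, a replicate block, rescue arrays as 1 sample, each array left out, and the methods' thresholds (unmoderated p at most 0.01 and z-score at least 3 in size). Promoters came from a RefSeq table (GRCh38.p14). Figures were drawn with matplotlib 3.10.9.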

Additional observations from a re-analysis of the deposited data

Results flagged for a closer look

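The effect of GATA6 depletion on APELA differed between days by a test of the difference itself. Relative to day 3 it was larger by 2.52 ± 0.73 log2 at day 4 (SE, limma, adjusted p = 0.0350) and by 2.35 ± 0.73 log2 at day 5 (adjusted p = 0.0427). Both depleted arrays exceeded both control arrays at days 4 and 5, and the groups overlapped at day 3. With 2 arrays a group such separation is a weak mark, and its share over all genes was not counted. With each array left out in turn the adjusted p reached 0.142 and 0.168.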

How the results depend on the processing

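Values are log2 differences. The methods' thresholds were recomputed here in a new fit, with each member read from its brightest probe set. The paper itself reports APLNR as elevated by GATA6 depletion at day 5. Under the methods' thresholds so recomputed, 6 called differences of members did not pass both criteria: APLNR depleted against control at day 5 (1.96), APELA control day 5 against day 0 (-1.92), the APELA effect at day 4 and at day 5 against day 3 (2.52 and 2.35), and APLN in control day 3 (-0.52) and depleted day 5 (-0.62) against control day 0. In a fit of the compared groups alone, the adjusted p was 0.0718 for APELA control day 5 against day 3 (2.31), 0.0767 and 0.0542 for the APELA effects (2.52 and 2.35), 0.177 and 0.143 for those 2 APLN differences (-0.52 and -0.62), and 0.0453, a gained call, for APLN rescue against control (-0.41). With the rescue arrays as 1 sample the APELA effects had adjusted p = 0.0513 and 0.0605 (2.52 and 2.35). A block for replicate number gained APLNR rescue against control (-1.23, adjusted p = 0.0411) and changed no other call of a member. Whether the numbers pair the samples was not tested. Deviations of same-numbered samples correlated over 0.1 in 4 of 28 pairs of groups (-0.07 to 0.25). The highest were control days 3 and 4 (0.25) and control days 4 and 5 (0.23), while control days 3 and 5 gave 0.09. The block moved no count of called genes by over 1.5 times (5945 against 5904 for depleted against control at day 5). Filtering dim genes dropped APLN.

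With each array left out, ranges were, for APELA, -2.42 to -1.42 for control day 5 against day 0, 1.55 to 3.07 for control day 5 against day 3, 1.71 to 2.99 and 1.68 to 2.68 for depletion at days 4 and 5, and 1.76 to 3.28 and 1.59 to 3.10 for the effects at days 4 and 5 against day 3. The APELA effect calls were lost without replicate 1 of control day 3 or depleted day 3, without either rescue array, and, for day 4, without replicate 1 of control day 4 or replicate 2 of depleted day 4, or, for day 5, without replicate 1 of control day 5 or either array of depleted day 5. Uncalled APELA differences changed sign for depleted day 5 against control day 0 (-0.11 to 0.63), depletion at day 3 (-0.92 to 0.60) and the effect at day 5 against day 4 (-0.81 to 0.47). APLNR ranged from 1.17 to 2.76 for depletion at day 5 and from -2.02 to -0.43 for rescue against control, and changed sign for the effect at day 4 against day 3 (-0.57 to 0.80). APLN ranged from -0.78 to -0.27 for control day 3, -0.64 to -0.12 for control day 5 and -0.88 to -0.36 for depleted day 5, each against control day 0, and from -0.49 to -0.33 for rescue against control. It changed sign for depleted day 5 against day 3 (-0.16 to 0.15), depletion at day 4 (-0.0294 to 0.27) and the effect at day 5 against day 3 (-0.30 to 0.0054). The cause was not tested.

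Under the methods' thresholds the effect at day 5 against day 4 gave 154 genes against 17, and the other comparisons gave 350 to 614 against 680 to 7156. In fits of the compared groups alone they were 2402 against 5045 (control day 3 and day 0), 573 against 2096 (control day 5 and day 3), 3912 against 6158 (control day 5 and day 0), 1785 against 3356 (depleted day 5 and control day 0), 161 against 680 (depletion at day 3) and 5 against 17 (effect at day 5 against day 4). With the rescue arrays as 1 sample, rescue against control gave 2085 against 4230, and the effect at day 5 against day 4 gave 2, and 9 with the mean of all probe sets. With each array left out, the counts that moved by over 1.5 times ranged from 254 to 943 (depletion at day 3), 1059 to 2460 (control day 5 and day 3), 1941 to 3641 (depleted day 5 and control day 0), 2784 to 4587 (depleted day 5 and day 3), 1690 to 3152 and 1 to 75 (effects at day 4 against day 3 and at day 5 against day 4) and 2187 to 4660 (rescue and control).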
